A study of Rattus norvegicus with 12 samples.

Results

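Transcripts of 38 genes that run glycolysis, gluconeogenesis and glycogen turnover, or that the hypoxia-inducible factor HIF1 controls, were followed in rat hepatocytes exposed to triclosan or to one of its structural relatives. The genes were chosen by name for their known roles, and each was read from its brightest probe. A probe counted only where 1 or more groups had all 3 arrays well above background. By that rule 37 of the 38 genes were measured, among 20359 genes or transcripts in all, and the hexokinase gene Hk2 was above background on 0 of the 12 arrays. Cryopreserved primary hepatocytes of Sprague Dawley males were kept in culture for 24 h before a further 24 h of exposure. There were 4 groups of 3 arrays, namely 30 µM triclosan, 30 µM diclosan, 30 µM 1-chloro-3-(4-chlorophenoxy) benzene (CCPB) and the solvent vehicle DMSO. All 3 compounds are chlorinated diphenyl ethers. Triclosan bears 3 chlorine atoms and a phenolic hydroxyl group, and diclosan has the same hydroxyl group with 1 chlorine atom fewer. CCPB has 2 chlorine atoms like diclosan but no hydroxyl group, and 1 of its chlorine atoms sits in the meta rather than the para position. The submitters call the replicates independent experiments, but do not say whether these came from different animals or cell lots, so the p-values measure only the spread between these cultures. A cultured hepatocyte outside the liver, supplied with medium, is also limited as a model of hepatic glucose output.

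In the liver, glycolysis breaks glucose down to pyruvate, and gluconeogenesis rebuilds glucose from pyruvate, lactate and amino acids through a few enzymes that bypass the irreversible steps. Fructose 2,6-bisphosphate, made and degraded by the bifunctional enzymes of the Pfkfb family, favours glycolysis over gluconeogenesis. Hepatocytes also store glucose as glycogen and release it again by phosphorolysis. Under low oxygen HIF1 raises many glycolytic genes together with genes for angiogenesis and mitophagy, and the 2 gene sets therefore share members.

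The level given for a gene is the log2 of its background-corrected signal minus the 75th percentile of the array, so a level of 0 equals that percentile and a difference of 1 is a doubling. Levels of different genes come from different probes and are not compared, apart from the marker lists, where signals are summed. Differences were tested with limma over all 20359 genes or transcripts, and "passed" means a Benjamini-Hochberg adjusted p under 0.05. The arrays came from 2 slides: the triclosan and DMSO arrays and 2 diclosan arrays (replicates 1 and 2) shared slide 1, while the third diclosan array (replicate 3) and all CCPB arrays shared slide 2. Diclosan replicate 3 stood apart from its group, with a median absolute difference of 0.114 and 0.113 from diclosan replicates 1 and 2, which differed from each other by 0.0657. Without the slide in the model, CCPB and slide cannot be told apart in comparisons with DMSO or triclosan. Differences that passed between CCPB and DMSO, or that turned their sign, are therefore also given from a second fit with a slide term (the slide block), where the step between slides is estimated from diclosan replicate 3 against diclosan replicates 1 and 2 alone. All 12 hepatocyte markers were above background on all 12 arrays.

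Between CCPB and DMSO, 15 of the 37 measured genes passed, 11 of them higher and 4 lower with CCPB. That is 40.5% of the genes against 28.3% of all genes or transcripts tested (14.3% higher and 14% lower). The split was 5 higher and 3 lower with median centring of the arrays, and 10 higher and 8 lower with quantile normalization. Of these, Hk1 entered the test only through its DMSO arrays and Pck1 only through the compound arrays, where each is high, and among probes above background on all 12 arrays 13 passed, 10 higher and 3 lower. With the slide as a block 1 gene passed, Pfkfb1, against 3.46% of all tested, and 9 genes that passed in neither fit turned their sign. The arrays of the 2 groups did not overlap for 24 of the 37 genes (64.9%), against 50.1% of all tested, and 22 had an unadjusted p under 0.05 (59.5%, against 41.2%). Over the 37 genes the median difference was -0.02 and the median absolute difference 0.12, beside 0.01 and 0.13 over all tested. Of the 15, 9 also passed whichever single CCPB or DMSO array was left out, and the other 6 (Hk1, Pck1, Pck2, Fbp1, Pdhb and Gys2) did not.

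**Figure D1:**
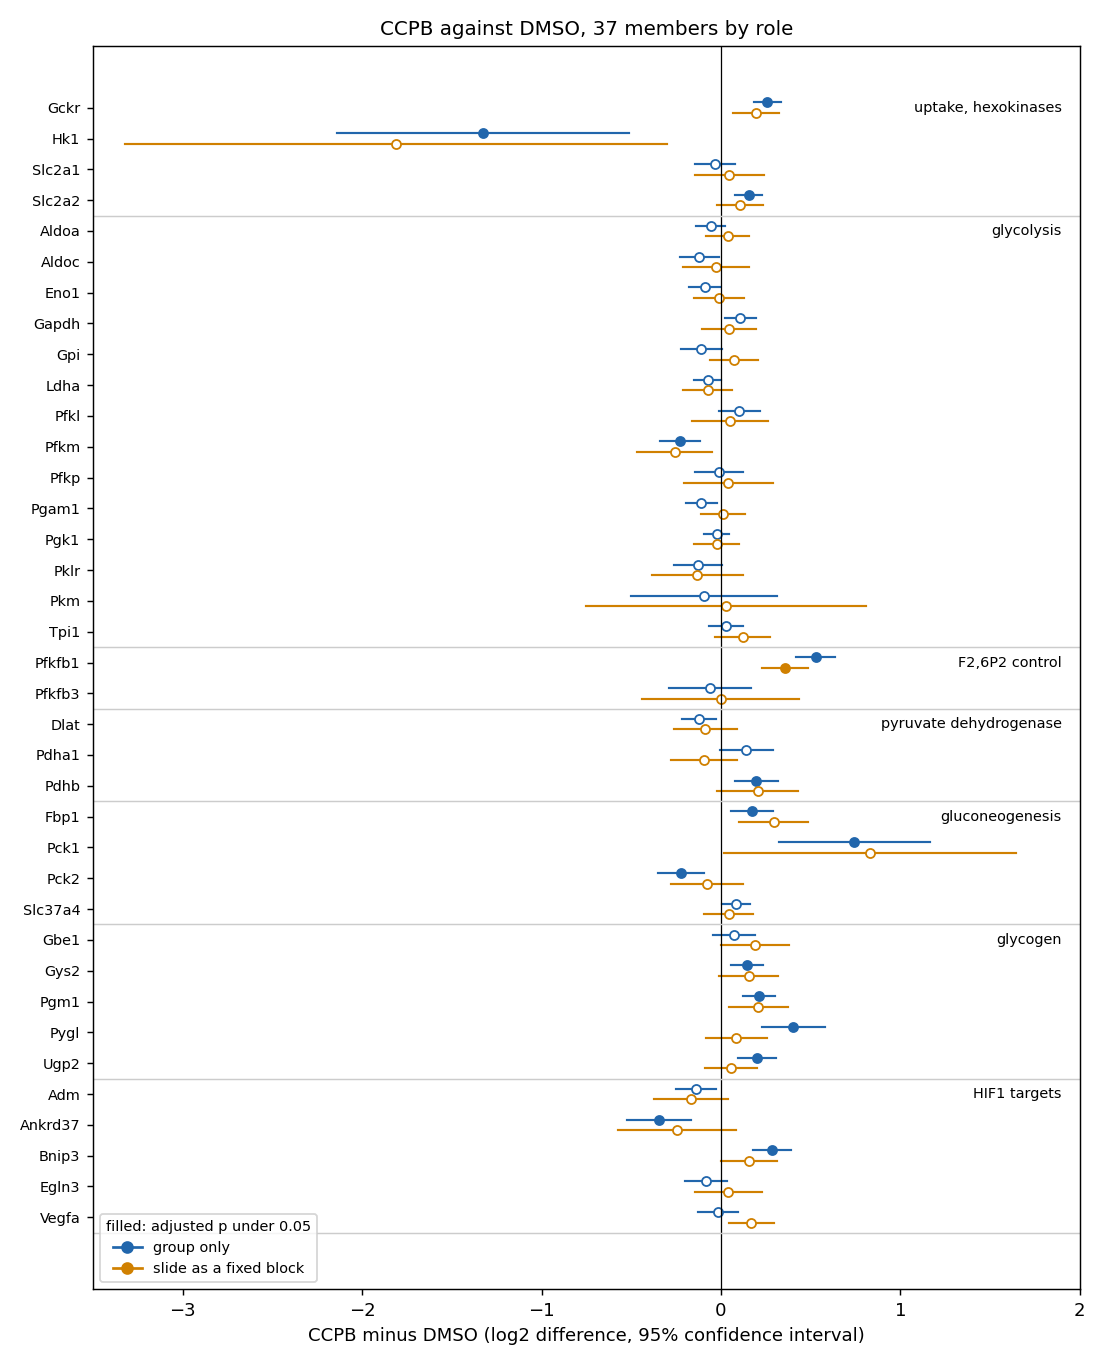
Log2 difference of CCPB minus DMSO for 37 genes grouped by role, with 95% confidence intervals, in the fit by group alone (blue) and with the slide as a fixed block (orange). Filled points passed an adjusted p of 0.05: 15 genes by group alone and 1, Pfkfb1, with the block. The interval of Hk1, which was not above background on the CCPB arrays, is the widest.

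The gene that moved most clearly was Pfkfb1, the liver form of the enzyme that makes and degrades fructose 2,6-bisphosphate. Its level was 5.18, 5.14 and 5.14 with triclosan, 5.08, 5.08 and 5.25 with diclosan, 5.47, 5.52 and 5.52 with CCPB, and 4.98, 5.01 and 4.93 with DMSO. The CCPB arrays were highest, the DMSO arrays lowest, and the arrays of both hydroxylated compounds lay between them with no overlap. Pfkfb1 rose 1.44-fold with CCPB (a log2 difference of 0.53 with a 95% confidence interval of 0.42 to 0.64 for 3 against 3 arrays, limma adjusted p = 0.000101). With the slide block the difference was 0.36 (interval 0.23 to 0.49, adjusted p = 0.0149). Diclosan replicate 3 was higher than diclosan replicates 1 and 2 by 0.172, and each CCPB array lay above it. With the slide and the replicate number both in the model Pfkfb1 did not pass (0.34, adjusted p = 0.0674). Pfkfb3, the inducible isoform known for its strong kinase activity, was dim, with a difference of -0.06 (interval -0.29 to 0.17, adjusted p = 0.687; 0.00 with the slide block, interval -0.44 to 0.43).

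Among genes of hexose uptake and phosphorylation, Gckr and Slc2a2 rose with CCPB, and Hk1 passed as lower. Gckr encodes the nuclear protein that binds and restrains the hexokinase typical of hepatocytes. Gckr had levels of 5.39, 5.35 and 5.35 with triclosan, 5.42, 5.41 and 5.48 with diclosan, 5.62, 5.66 and 5.66 with CCPB, and 5.37, 5.43 and 5.36 with DMSO. Only the CCPB arrays lay apart from the DMSO arrays, and the difference was 0.26 (interval 0.18 to 0.33, limma adjusted p = 0.000716), or 0.20 with the slide block (0.07 to 0.32, adjusted p = 0.102). Slc2a2 encodes GLUT2, the high-capacity glucose carrier of the hepatocyte membrane. Its levels were 6.20, 6.22 and 6.25 with triclosan, 6.21, 6.23 and 6.27 with diclosan, 6.37, 6.32 and 6.37 with CCPB, and 6.16, 6.21 and 6.22 with DMSO. The CCPB arrays were again the highest, by 0.16 over DMSO (interval 0.08 to 0.23, limma adjusted p = 0.00889; 0.11 with the slide block, adjusted p = 0.374). Hk1, a hexokinase of most other tissues, was measured at -4.72, -5.23 and -4.38 with triclosan, -5.69, -5.31 and -5.01 with diclosan, -5.18, -5.53 and -6.68 with CCPB, and -4.35, -4.77 and -4.29 with DMSO. It was well above background on 2 triclosan arrays, 0 diclosan arrays, 0 CCPB arrays and all 3 DMSO arrays, so the CCPB level is only bounded. As it was tested only because the DMSO arrays, where it is high, cleared background, its pass is a description and not support for a fall. Hk1 was at least 1.46-fold lower with CCPB (measured means -5.80 with CCPB and -4.47 with DMSO, limma adjusted p = 0.0242; with the slide block adjusted p = 0.191). That bound holds for the processed signal, and with the other background correction (normexp) the log2 difference was -0.33 (adjusted p = 0.004), which is a smaller fold than the bound. It did not pass without DMSO replicate 1 (adjusted p = 0.0688), DMSO replicate 3 (0.0727) or CCPB replicate 3 (0.0558). Slc2a1, the widely expressed carrier GLUT1 and a HIF1 target, differed by -0.03 (interval -0.14 to 0.08), and by 0.05 with the slide block (-0.14 to 0.24).

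Of the 14 glycolytic enzymes, 1 passed between CCPB and DMSO, the muscle-type phosphofructokinase Pfkm, and it fell. Of all genes or transcripts tested, 28.3% passed in either direction and 14% as lower. Pfkm had levels of -0.86, -0.72 and -0.73 with triclosan, -0.76, -0.91 and -0.81 with diclosan, -0.94, -0.92 and -0.88 with CCPB, and -0.67, -0.71 and -0.67 with DMSO. All 9 arrays with a compound lay below the 3 DMSO arrays, and the CCPB difference was -0.23 (interval -0.34 to -0.12, limma adjusted p = 0.00909; -0.26 with the slide block, adjusted p = 0.179). The other 13 enzymes differed from DMSO by -0.13 to 0.11, and did not pass in either fit. Pfkl, the liver phosphofructokinase, differed by 0.10 (interval -0.01 to 0.22). For Gapdh, which oxidises glyceraldehyde 3-phosphate, the difference was 0.11 (interval 0.02 to 0.19, limma adjusted p = 0.0629). Ldha, which interconverts pyruvate and lactate, gave -0.07 (interval -0.15 to 0.00). Pklr, the pyruvate kinase of liver, gave -0.13 (interval -0.26 to 0.00). For the other enzymes in their order along the pathway, the differences were -0.11 for Gpi, -0.01 for Pfkp, -0.06 for Aldoa, -0.12 for Aldoc, 0.03 for Tpi1, -0.02 for Pgk1, -0.11 for Pgam1, -0.09 for Eno1 and -0.10 for Pkm. The sign turned with the slide block for 5 of them, to 0.07 for Gpi, 0.04 for Pfkp, 0.04 for Aldoa, 0.01 for Pgam1 and 0.03 for Pkm, so their direction depends on the slide term. Most of these intervals were narrow: over the 37 genes the median half-width was 0.11, so a change of the size seen for Pfkfb1 lay outside the intervals of all 14 enzymes in the fit by group alone, while with the slide block the interval of Pkm was -0.75 to 0.81. Of the 3 pyruvate dehydrogenase genes, Pdhb (the E1 beta subunit) rose. Its levels were 3.71, 3.66 and 3.89 with triclosan, 3.76, 3.81 and 3.78 with diclosan, 3.85, 3.91 and 3.88 with CCPB, and 3.69, 3.67 and 3.69 with DMSO. The CCPB arrays lay above the DMSO arrays by 0.20 on average (interval 0.08 to 0.32, limma adjusted p = 0.0226; 0.21 with the slide block, adjusted p = 0.322). Pdhb did not pass without any 1 of the DMSO arrays (adjusted p = 0.0545 to 0.0664), CCPB replicate 2 (0.0711) or CCPB replicate 3 (0.0583). Pdha1 (E1 alpha) differed by 0.14, but by -0.09 with the slide block, and Dlat (the E2 acetyltransferase) by -0.12 (-0.09 with the block). Neither passed in either fit.

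Of the glycogen genes, 4 of 5 rose with CCPB, namely Pygl, Pgm1, Ugp2 and Gys2, beside 14.3% of all genes or transcripts tested that passed as higher. Of these 5, 0 passed with the slide block, against 3.46% of all tested. Pygl encodes the liver glycogen phosphorylase, which frees glucose 1-phosphate from glycogen. Its levels were 1.67, 1.77 and 1.67 with triclosan, 1.70, 1.71 and 2.02 with diclosan, 2.16, 2.15 and 2.05 with CCPB, and 1.75, 1.69 and 1.71 with DMSO. The 4 arrays of slide 2, diclosan replicate 3 among them, were the 4 highest, and the 8 arrays of slide 1 lay within 1.67 to 1.77. The CCPB difference of 0.40 (interval 0.23 to 0.58, limma adjusted p = 0.00563) was 0.09 with the slide block (interval -0.09 to 0.26, adjusted p = 0.606). Pgm1 encodes the phosphoglucomutase that interconverts glucose 1-phosphate and glucose 6-phosphate. Pgm1 had levels of 1.905, 1.906 and 1.999 with triclosan, 1.89, 1.92 and 1.91 with diclosan, 2.04, 2.07 and 2.03 with CCPB, and 1.76, 1.88 and 1.86 with DMSO. The order was CCPB above both hydroxylated compounds above DMSO, with no overlap between them and DMSO. Here diclosan replicate 3 lay between the other 2 diclosan arrays, and the CCPB difference was 0.21 in both fits (group alone, interval 0.12 to 0.30, limma adjusted p = 0.0047; slide block, 0.04 to 0.37, adjusted p = 0.172).

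Ugp2, the enzyme that makes UDP-glucose for glycogen synthesis, measured 4.88, 4.88 and 4.91 with triclosan, 4.86, 4.85 and 5.00 with diclosan, 5.06, 4.97 and 5.07 with CCPB, and 4.83, 4.80 and 4.87 with DMSO. Diclosan replicate 3 fell among the CCPB arrays, and the CCPB difference of 0.20 (interval 0.10 to 0.31, limma adjusted p = 0.0123) was 0.06 with the slide block (adjusted p = 0.705). Gys2, the liver glycogen synthase, had levels of 5.56, 5.48 and 5.53 with triclosan, 5.50, 5.56 and 5.52 with diclosan, 5.57, 5.65 and 5.64 with CCPB, and 5.42, 5.49 and 5.52 with DMSO. All CCPB arrays lay above all DMSO arrays, by 0.15 on average (interval 0.06 to 0.24, limma adjusted p = 0.0229; 0.16 with the slide block, adjusted p = 0.306). Gys2 did not pass without DMSO replicate 1 (adjusted p = 0.079), DMSO replicate 2 (0.0539), CCPB replicate 2 (0.0761) or CCPB replicate 3 (0.0728). Gbe1, the branching enzyme, differed by 0.07 (interval -0.04 to 0.19).

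Of the 4 gluconeogenic genes, 2 passed as higher (Pck1 and Fbp1) and 1 as lower (Pck2) with CCPB, and 0 with the slide block. Of all genes or transcripts tested, 14.3% passed as higher and 14% as lower, and 3.46% passed with the slide block. Pck1, the cytosolic phosphoenolpyruvate carboxykinase that opens the path from oxaloacetate, was dim in these cultures. Its levels were -4.36, -4.10 and -3.98 with triclosan, -4.89, -4.23 and -4.65 with diclosan, -3.95, -4.28 and -4.40 with CCPB, and -5.22, -4.77 and -4.89 with DMSO. Its signal cleared background on all 9 arrays with a compound and on 1 of the 3 DMSO arrays. It was thus tested only through the compound groups, where it is high, and its DMSO level rests on signals mostly not above background, so its difference is a description and not support for a rise. All triclosan and all CCPB arrays lay above all DMSO arrays. The measured CCPB difference was 0.74 (interval 0.32 to 1.17, limma adjusted p = 0.0178; 0.83 with the slide block, adjusted p = 0.267). Pck1 did not pass without DMSO replicate 1 (adjusted p = 0.0627) or CCPB replicate 1 (0.0621), and with another background correction the difference was 0.12 (adjusted p = 0.233). Its promoter is a classic example of hormonal control through a cAMP response element, and the 250 bases before the transcription start (RefSeq, GRCr8, chr3:182348322-182348571, plus strand) are shown for that element. Capitals mark TTACGTCA, 93 to 86 bases before the start, which was found on either strand in 0.7% of 33469 rat promoter windows of this length and in 1 of the 37 members with a window.
Pck1: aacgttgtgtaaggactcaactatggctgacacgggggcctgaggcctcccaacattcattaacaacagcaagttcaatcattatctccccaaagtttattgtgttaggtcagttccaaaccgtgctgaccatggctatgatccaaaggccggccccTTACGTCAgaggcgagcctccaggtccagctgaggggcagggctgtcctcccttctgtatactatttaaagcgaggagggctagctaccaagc

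Fbp1, the fructose bisphosphatase that reverses the phosphofructokinase step, measured 6.42, 6.40 and 6.42 with triclosan, 6.47, 6.36 and 6.30 with diclosan, 6.68, 6.62 and 6.50 with CCPB, and 6.44, 6.42 and 6.42 with DMSO. The CCPB arrays were the 3 highest of the 12, and diclosan replicate 3, on the same slide, was the lowest. The difference from DMSO was 0.17 (interval 0.06 to 0.29, limma adjusted p = 0.0344), and 0.29 with the slide block (0.10 to 0.49, adjusted p = 0.104). By group alone Fbp1 did not pass without any 1 of the DMSO arrays (adjusted p = 0.0717 to 0.0873), CCPB replicate 1 (0.112) or CCPB replicate 2 (0.0917). Pck2, the mitochondrial carboxykinase, measured 4.94, 4.92 and 4.81 with triclosan, 4.98, 4.89 and 4.79 with diclosan, 4.73, 4.78 and 4.69 with CCPB, and 5.01, 4.96 and 4.90 with DMSO. CCPB arrays lay below all DMSO arrays, with diclosan replicate 3 close above them. The difference of -0.22 (interval -0.35 to -0.09, limma adjusted p = 0.0184) was -0.08 with the slide block (adjusted p = 0.708). Pck2 did not pass without DMSO replicate 1 (adjusted p = 0.0639), DMSO replicate 2 (0.0518), CCPB replicate 1 (0.0506) or CCPB replicate 3 (0.0636). Slc37a4, the carrier that brings glucose 6-phosphate into the endoplasmic reticulum, differed by 0.08 (interval 0.01 to 0.16, limma adjusted p = 0.0969).

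**Figure D2:**
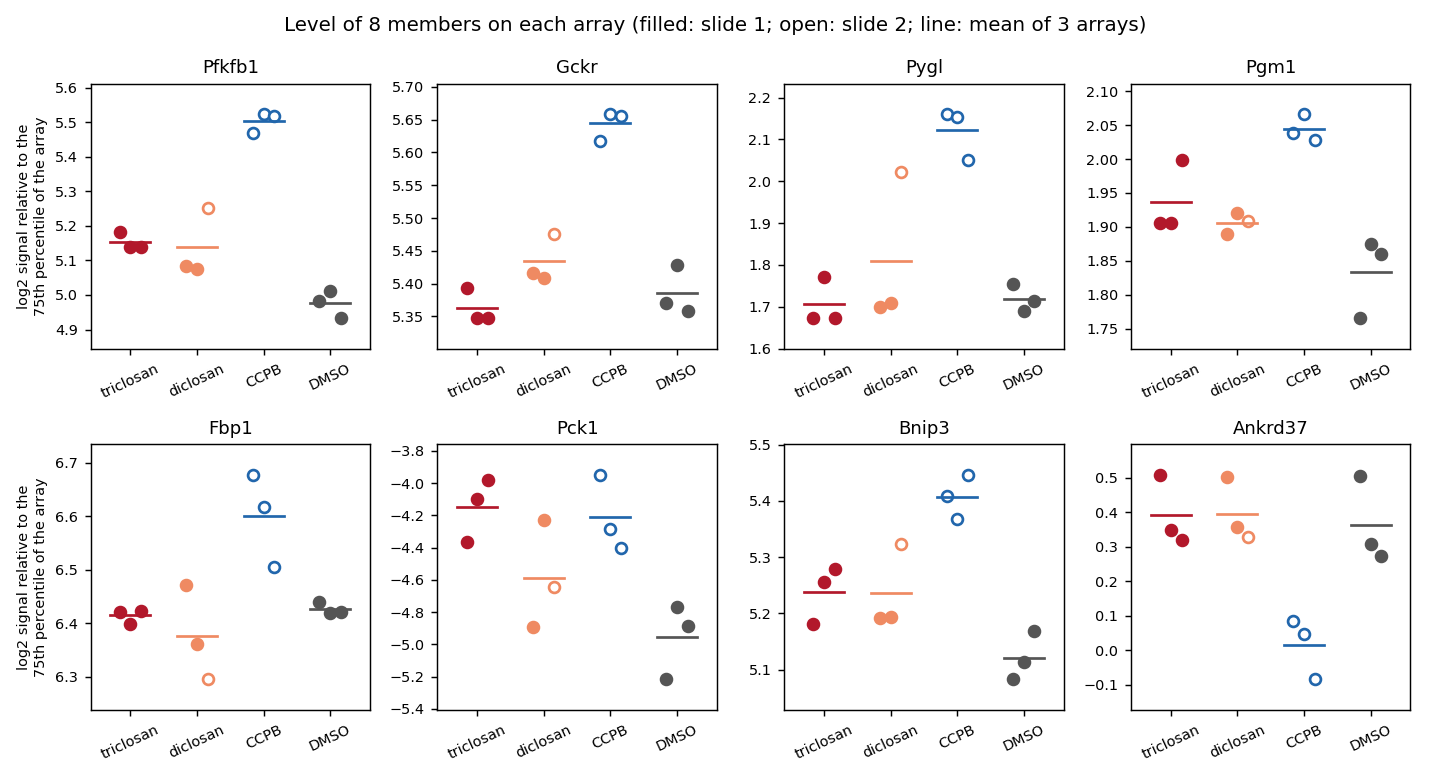
Log2 level relative to the 75th percentile of the array for 8 genes on each array, by compound, with the mean of 3 arrays as a line; filled points lay on slide 1 and open points on slide 2. Pfkfb1, Gckr and Bnip3 are highest on the CCPB arrays and Ankrd37 lowest, while for Pygl the diclosan array of slide 2 (2.02) lies close to the CCPB arrays (2.05 to 2.16).

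The 5 HIF1 targets did not move together with CCPB. Bnip3, a mitochondrial protein that takes part in mitophagy, rose, and Ankrd37, a small ankyrin-repeat protein, fell. Bnip3 had levels of 5.18, 5.26 and 5.28 with triclosan, 5.19, 5.19 and 5.32 with diclosan, 5.41, 5.37 and 5.45 with CCPB, and 5.08, 5.11 and 5.17 with DMSO. The CCPB arrays lay above the other 9, by 0.29 over DMSO (interval 0.18 to 0.39, limma adjusted p = 0.00225; 0.16 with the slide block, adjusted p = 0.275). For Ankrd37 the levels were 0.51, 0.35 and 0.32 with triclosan, 0.50, 0.36 and 0.33 with diclosan, 0.08, 0.05 and -0.08 with CCPB, and 0.50, 0.31 and 0.27 with DMSO. The CCPB arrays lay below the other 9, and the triclosan, diclosan and DMSO arrays covered much the same range. The CCPB difference was -0.35 (interval -0.52 to -0.17, limma adjusted p = 0.0116), or -0.25 with the slide block (interval -0.57 to 0.08, adjusted p = 0.421). Vegfa, the angiogenic growth factor, measured 2.74, 2.74 and 2.68 with triclosan, 2.63, 2.65 and 2.45 with diclosan, 2.67, 2.72 and 2.69 with CCPB, and 2.71, 2.73 and 2.70 with DMSO. Its diclosan arrays were the 3 lowest, and CCPB differed from DMSO by -0.02 (interval -0.13 to 0.10). That difference was 0.17 with the slide block (interval 0.04 to 0.29, limma adjusted p = 0.142). Egln3, the prolyl hydroxylase that marks HIF subunits for degradation, differed by -0.08 (interval -0.20 to 0.03; 0.04 with the slide block), and the vasoactive peptide gene Adm by -0.14 (interval -0.25 to -0.03, limma adjusted p = 0.0605; -0.17 with the slide block).

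The promoter windows of the HIF1 targets that moved in opposite directions are shown because both hold the letters a HIF dimer is known to recognise. They are the 250 bases before the transcription start from RefSeq (GRCr8), Bnip3 at chr1:203154963-203155212 on the minus strand and Ankrd37 at chr16:53001257-53001506 on the plus strand, each written 5′ to 3′ along the gene. Capitals mark matches to ACGTG or GCGTG on either strand, so that CACGC is GCGTG on the other strand and CACGTG is ACGTG on both.
Bnip3: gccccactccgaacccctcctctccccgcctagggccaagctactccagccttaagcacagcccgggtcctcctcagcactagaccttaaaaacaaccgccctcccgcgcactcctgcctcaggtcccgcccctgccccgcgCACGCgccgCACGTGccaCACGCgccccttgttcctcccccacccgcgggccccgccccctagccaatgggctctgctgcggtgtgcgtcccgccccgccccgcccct
Ankrd37: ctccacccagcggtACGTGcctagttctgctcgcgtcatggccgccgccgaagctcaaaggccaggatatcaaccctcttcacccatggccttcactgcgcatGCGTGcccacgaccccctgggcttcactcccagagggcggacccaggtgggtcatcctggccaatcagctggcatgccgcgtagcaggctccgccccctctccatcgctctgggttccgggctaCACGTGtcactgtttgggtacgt
In Bnip3 the CACGTG lay 99 to 94 bases before the start, and in Ankrd37 23 to 18 bases before it, with a further ACGTG at 236 to 232 bases and a GCGTG at 147 to 143 bases. ACGTG occurred in 16 of 37 member windows and in 16.6% of all 33469 windows, GCGTG in 19 member windows and 25.9% of all, and CACGTG in 5 member windows (Ankrd37, Bnip3, Ldha, Pdhb and Pfkfb3) and 5.6% of all. At least 1 of ACGTG and GCGTG was present in 25 of the 37 windows (67.6%) and in 36.7% of all. The full cAMP response element TGACGTCA was found in 1 member window, that of Ldha, and in 1.6% of all. These matches describe letters, and no binding was measured. Among the 25 with a HIF core are Hk1, Pfkm, Pck2 and Ankrd37, which passed as lower with CCPB by group alone. Gckr, Pdhb, Fbp1, Pygl, Ugp2, Pgm1 and Bnip3, which passed as higher, are also among them. Pfkfb1, Slc2a2, Pck1 and Gys2, which passed as higher too, are not. No gene with a HIF core passed between CCPB and DMSO with the slide block, where 1 of the 37 genes and 3.46% of all tested passed.

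Within diclosan, the step between slides was taken as replicate 3 on slide 2 minus the mean of replicates 1 and 2 on slide 1. This step also holds any difference between these diclosan cultures. For 8 of the 15 genes that passed between CCPB and DMSO, replicate 3 lay beyond both other diclosan arrays in the direction of the CCPB difference, for 2 (Fbp1 and Hk1) beyond both in the opposite direction, and for 5 (Gys2, Pck1, Pdhb, Pfkm and Pgm1) between them. Among all 5757 genes or transcripts that passed, the same direction was seen in 63.5%. The step was 0.317 for Pygl, or 78.6% of its CCPB difference, 0.146 for Ugp2 (72.4%) and -0.144 for Pck2 (65.2%). For Bnip3 it was 0.129 (45.3%), for Pfkfb1 0.172 (32.5%), for Ankrd37 -0.101 (29.1%) and for Gckr 0.0629 (24.3%). All 3 CCPB arrays lay beyond diclosan replicate 3 for 14 of the 15, Ugp2 being the exception, where the share over all that passed was 72.1%. Pdha1, which did not pass, stepped by 0.235, more than its CCPB difference of 0.14. How much of each step belongs to the slide and how much to that diclosan culture was not tested.

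**Figure D3:**
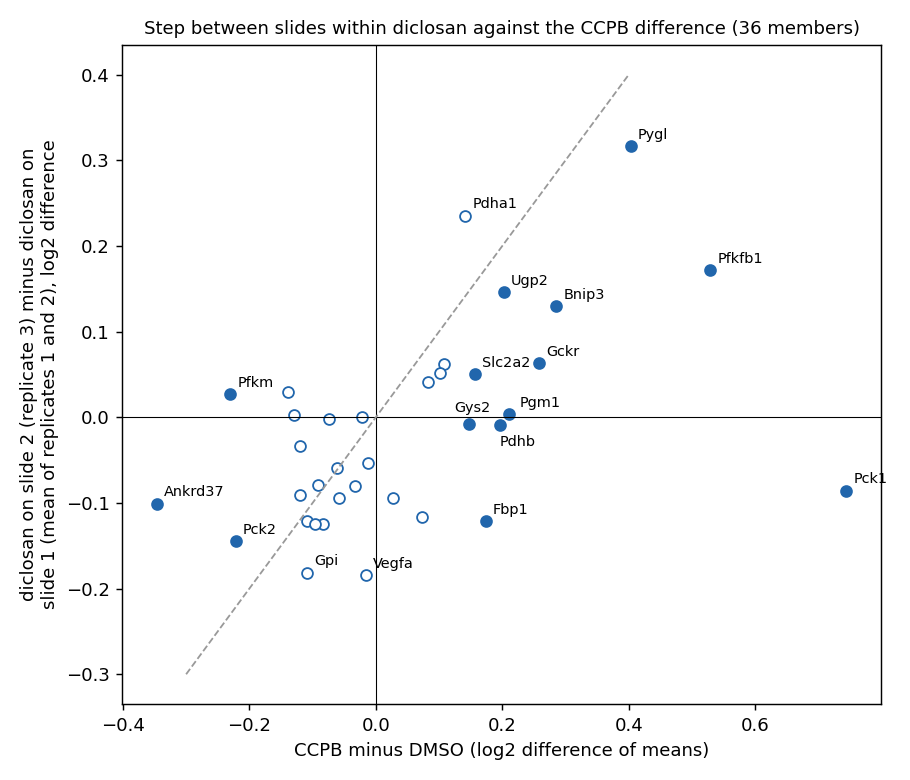
Step between slides within diclosan (replicate 3 minus the mean of replicates 1 and 2, log2) against the CCPB minus DMSO difference (log2) for 36 genes, Hk1 being left out for its wide spread; filled points passed between CCPB and DMSO and the dashed line marks equality. Pygl and Ugp2 lie near the line, whereas Pfkfb1, Gckr, Pgm1 and Pck1 lie well below it.

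The comparisons of the hydroxylated compounds with CCPB share the CCPB arrays with the comparison above. Between triclosan and CCPB 8 of 37 genes passed (21.6%, against 20.5% of all tested), a share close to that of all tested. With triclosan 1 was higher (2.7%, against 9.48%) and 7 lower (18.9%, against 11%). The split was 1 higher and 3 lower with median centring, and 3 and 3 with quantile normalization. With the slide block 0 passed, against 1.41% of all tested, and by group alone 15 had an unadjusted p under 0.05 (40.5%, against 36.2%). The arrays did not overlap for 16 genes (43.2%, against 43.4%). By group alone Gckr differed by -0.28 (interval -0.36 to -0.21, limma adjusted p = 0.000847), Pfkfb1 by -0.35 (-0.46 to -0.24, adjusted p = 0.00171), Pygl by -0.42 (-0.59 to -0.24, adjusted p = 0.00732) and Ankrd37 by 0.38 (0.20 to 0.55, adjusted p = 0.0117). With the slide block Gckr differed by -0.22 (-0.34 to -0.09, limma adjusted p = 0.105), Pfkfb1 by -0.18 and Ankrd37 by 0.28. The blocked differences of the 5 glycogen genes, Pygl among them, ran from -0.11 to 0.00. Slc2a2, Bnip3, Fbp1 and Slc37a4 were lower with triclosan by 0.11 to 0.19 by group alone (adjusted p = 0.0254 to 0.0438). Bnip3 did not pass without any 1 of the 6 arrays (adjusted p = 0.0552 to 0.0997), and neither Fbp1 (0.0709 to 0.109) nor Slc37a4 (0.089 to 0.123) without any 1 of them other than CCPB replicate 3. Slc2a2 did not pass without triclosan replicate 1 or 2 or CCPB replicate 1 or 3 (0.0681 to 0.0762).

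Diclosan and CCPB have the same number of chlorine atoms and differ in the hydroxyl group and the place of 1 chlorine atom. Between them 9 of 37 genes passed (24.3%, against 14.4% of all tested). With diclosan 2 were higher (5.41%, against 8.1%) and 7 lower (18.9%, against 6.27%). Before adjustment 14 had p under 0.05 (37.8%, against 31.4%), and the arrays did not overlap for 15 (40.5%, against 32.3%). The split was 1 higher and 2 lower with median centring. With the slide block 3 passed, all lower with diclosan (8.11%, against 4.95% of all tested in either direction and 2.44% lower). Pfkfb1 differed by -0.37 (interval -0.47 to -0.26, limma adjusted p = 0.00127), and by -0.25 with the slide block (-0.35 to -0.15, adjusted p = 0.0165). Fbp1 differed by -0.22 (-0.34 to -0.11, limma adjusted p = 0.0199), and by -0.30 with the block (-0.45 to -0.15, adjusted p = 0.036). Vegfa differed by -0.12 by group alone (limma adjusted p = 0.141) and by -0.24 with the block (-0.34 to -0.14, adjusted p = 0.0167). All 3 blocked differences set the CCPB arrays against diclosan replicate 3 alone, so each rests on 1 diclosan array. The Vegfa level of 2.45 in diclosan replicate 3 was the lowest of the 12, as was its Fbp1 level. Without that array the Vegfa difference was -0.06. Gckr (-0.21), Pygl (-0.31), Bnip3 (-0.17), Pgm1 (-0.14) and Slc2a2 (-0.12) were lower with diclosan, and Ankrd37 (0.38) and Slc2a1 (0.17) higher, by group alone. Of these 9, Pfkfb1, Gckr and Ankrd37 passed whichever single diclosan or CCPB array was left out. Bnip3 (adjusted p = 0.0627 to 0.131), Pgm1 (0.0907 to 0.134) and Slc2a2 (0.068 to 0.155) did not pass without any 1 of these arrays other than diclosan replicate 3. Slc2a1 did not without diclosan replicate 1 or 2 or CCPB replicate 2 or 3 (0.104 to 0.163), Pygl without diclosan replicate 1 or 2 or CCPB replicate 1 or 2 (0.0807 to 0.102), and Fbp1 without diclosan replicate 2 or CCPB replicate 1 or 2 (0.0641 to 0.0687).

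Triclosan and DMSO shared slide 1, and 0 of 37 genes passed between them, as did 0.0639% of all tested. Before adjustment 7 genes had p under 0.05 (18.9%, against 11.6% of all tested), and the arrays did not overlap for 10 (27%, against 19%), 5 above DMSO (against 8.67% of all tested) and 5 below (against 10.3%). With the slide block 0 passed as well, against 0.226% of all tested. The median difference of the 37 genes was -0.01 and the median absolute difference 0.06, as over all tested. Pck1, tested only through the compound groups, differed by 0.81 as measured (interval 0.39 to 1.23, limma adjusted p = 0.164), with all 3 triclosan arrays above all 3 DMSO arrays. Pck1 is among the 7 genes with p under 0.05 and the 5 above DMSO, as a description and not support for a rise. It passed when p-values were adjusted over all 6 comparisons together (limma adjusted p = 0.0303). That adjustment pools them with the many small p-values of the CCPB comparisons. With the other background correction the Pck1 difference was 0.19 (limma adjusted p = 0.395). Pfkfb1 differed by 0.18 (interval 0.07 to 0.29, limma adjusted p = 0.219), and the value adjusted in the slide-blocked fit was 0.0781. Pklr, whose transcript carbohydrate-response signalling is known to raise, averaged 4.06 ± 0.033 with triclosan and 4.28 ± 0.045 with DMSO (SD, n = 3 arrays each; difference -0.22, interval -0.36 to -0.09, limma adjusted p = 0.218). Aldoc, an aldolase isoform, averaged 0.42 ± 0.017 with triclosan and 0.58 ± 0.018 with DMSO (difference -0.16, interval -0.27 to -0.05, limma adjusted p = 0.259). Neither Pklr nor Aldoc had a triclosan array inside the DMSO range.

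Between diclosan and DMSO 0 of 37 genes passed, as did 0.00982% of all tested. Before adjustment 11 genes had p under 0.05 (29.7%, against 10.6% of all tested), and the arrays did not overlap for 12 (32.4%, against 16.1%), 5 above DMSO (against 8.71% of all tested) and 7 below (against 7.39%). With the slide block 0 passed, against 0.0147% of all tested. These values share the DMSO arrays with the triclosan comparison. Pklr averaged 4.04 ± 0.0094 with diclosan and 4.28 ± 0.045 with DMSO (difference -0.24, interval -0.38 to -0.11, limma adjusted p = 0.24). Aldoc averaged 0.37 ± 0.054 with diclosan and 0.58 ± 0.018 with DMSO (difference -0.20, interval -0.31 to -0.10, limma adjusted p = 0.235). Both passed when p-values were adjusted over all 6 comparisons (0.0363 for Pklr). Pfkfb1 differed by 0.16 (interval 0.05 to 0.27, limma adjusted p = 0.318), and by 0.11 without diclosan replicate 3. Pfkfb3 differed by -0.29 (interval -0.52 to -0.06, limma adjusted p = 0.379). Pck1, tested only through the compound groups, differed by 0.37 as measured, with its diclosan arrays overlapping the DMSO arrays. That difference ran from 0.03 to 0.52 over the alternatives. Hk1, tested only through its DMSO arrays, where it is high, was well above background on 0 diclosan arrays. On the processed signal it was at least 1.56-fold lower with diclosan (means -5.34 with diclosan and -4.47 with DMSO; interval of the measured difference -1.68 to -0.05), which did not pass (limma adjusted p = 0.447). That interval also holds smaller folds than the bound, so the value is a description and not support for a fall. Hk1 is among the 11 genes with p under 0.05 and the 7 below DMSO counted above.

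Triclosan and diclosan, which differ by 1 chlorine atom, gave 0 passes among the 37 genes, with 0% of all tested (slide block 0, against 0.00491%), and 3 genes had an unadjusted p under 0.05 (8.11%, against 6.83% of all tested). The arrays did not overlap for 5 genes (13.5%, against 9.94% of all tested). Slc2a1 averaged 1.65 ± 0.036 with triclosan and 1.84 ± 0.056 with diclosan (difference -0.19, interval -0.30 to -0.08, limma adjusted p = 0.512), and passed only when p-values were adjusted over all 6 comparisons. The DMSO arrays of Slc2a1, with a mean of 1.70, lay between both compounds. Vegfa differed by 0.14 (interval 0.03 to 0.25, limma adjusted p = 0.635) and Pck1 by 0.44 (interval 0.02 to 0.87, adjusted p = 0.717). For the 14 glycolytic enzymes the differences ran between -0.06 and 0.09. For Pfkfb1 the difference was 0.02 and for Gckr -0.07 (interval -0.15 to 0.00), so the data bound a difference between these compounds without showing that they act alike.

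**Figure D4:**
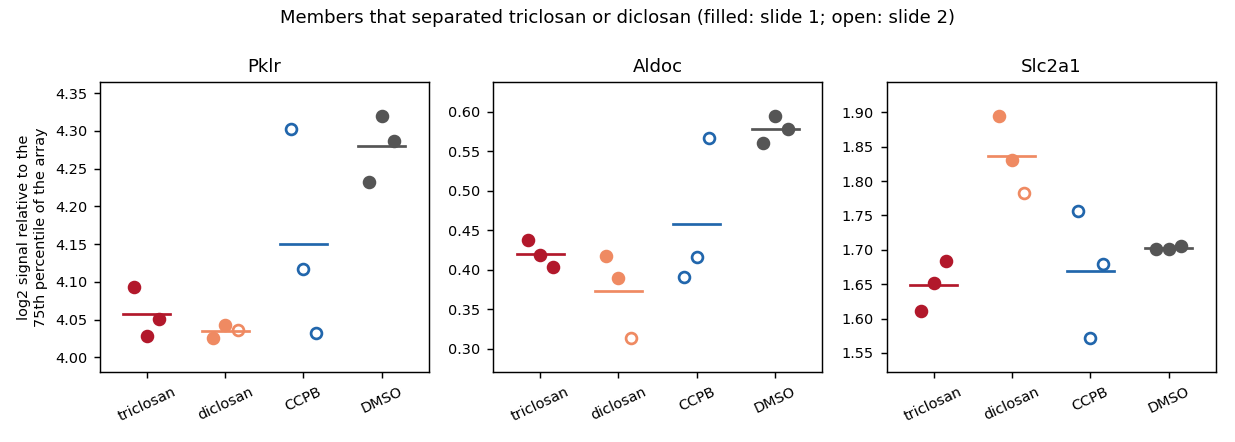
Log2 level relative to the 75th percentile of the array for Pklr, Aldoc and Slc2a1 on each array, by compound, with the mean of 3 arrays as a line; filled points lay on slide 1 and open points on slide 2. All triclosan and diclosan arrays lie below the DMSO arrays for Pklr and Aldoc, the CCPB arrays spread over both ranges, and for Slc2a1 the diclosan arrays lie above the DMSO arrays and the triclosan arrays below them.

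Further genes of the same pathways were counted by list, and each share is to be read beside the 28.3% of all genes or transcripts that passed between CCPB and DMSO (3.46% with the slide block). With triclosan or diclosan against DMSO, 0 genes of the 4 lists passed. With CCPB against DMSO, 7 of 18 measured genes of glycolysis and pyruvate transport passed, 6 higher and 1 lower. Among them Galm, which interconverts the anomers of hexoses, rose by 0.36 (limma adjusted p = 0.000492; slide block 0.30, adjusted p = 0.0796) and Mpc2, a subunit of the mitochondrial pyruvate carrier, by 0.24 (limma adjusted p = 0.00693; slide block 0.06, adjusted p = 0.616). Of 17 genes of gluconeogenesis and its hormonal control 5 passed, 4 higher and 1 lower. Gpd1, the cytosolic glycerol 3-phosphate dehydrogenase, rose in both fits (0.23, limma adjusted p = 0.0052; slide block 0.33, adjusted p = 0.0424). Igfbp1, an insulin-repressed secreted binding protein, rose by 0.27 (limma adjusted p = 0.00355), and the liver transcription factor Onecut1 fell by 0.43 (adjusted p = 0.00293), without passing in the blocked fit (0.323 and 0.366).

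Of 12 measured genes of the wider glycogen list 4 passed with CCPB, 3 higher and 1 lower, beside 28.3% of all genes or transcripts tested. Ppp1r3b and Ppp1r3c, which target protein phosphatase 1 to glycogen, rose by 0.39 (limma adjusted p = 0.00127; slide block 0.32, adjusted p = 0.135) and 0.24 (limma adjusted p = 0.00665; slide block 0.32, adjusted p = 0.0862). The kinase Gsk3b, which phosphorylates glycogen synthase, fell by 0.16 (limma adjusted p = 0.0181; slide block adjusted p = 0.635). Of 22 measured further genes of the HIF pathway 12 passed, 5 higher and 7 lower, beside the same 28.3% of all tested. Ak4, a mitochondrial adenylate kinase, rose in both fits (0.44, limma adjusted p = 0.000133; slide block 0.35, adjusted p = 0.0329). Plin2, a lipid droplet coat protein, rose by 0.34 (limma adjusted p = 0.000913), and Ddit4, an inhibitor of mTORC1 signalling, fell by 0.42 (adjusted p = 0.00113), without passing in the blocked fit (0.141 and 0.175). Both directions occurred in all 4 lists. In the fit with the slide block, 0 of 18 genes of the glycolysis list, 1 of 17 of the gluconeogenesis list, 0 of 12 of the glycogen list and 1 of 22 of the HIF list passed. Of all genes or transcripts tested, 3.46% passed in that fit.

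Markers of the cell types that a hepatocyte preparation can hold were summed as linear signal relative to the 75th percentile. The 12 hepatocyte markers summed to 2630 to 2750 with triclosan, 2630 to 2720 with diclosan, 2790 to 2850 with CCPB and 2690 to 2780 with DMSO. Between CCPB and DMSO 5 of them passed as higher and 1 as lower (2 and 0 with the slide block). The shares over all genes or transcripts tested were 14.3% higher and 14% lower, and 3.46% in either direction with the block. Of the 9 stellate cell and fibroblast markers 6 were measured, with sums of 12.7 to 13.7 with triclosan, 12.8 to 14.8 with diclosan, 9.07 to 10.1 with CCPB and 14.1 to 15.3 with DMSO. In that list Acta2 was higher and Tagln lower with CCPB (0.29, adjusted p = 0.571, and -0.59, adjusted p = 0.0371, with the slide block), and Lum, Dcn and Lrat were not above background. Tagln made up most of that sum, with mean levels of 3.63 with DMSO and 2.91 with CCPB (0.72 and 0.56 for Col1a2, the next brightest). The lower sum with CCPB thus mainly follows Tagln, while 2 of the 6 (Acta2 and Col3a1) were higher by group alone. The 4 measured of 8 endothelial markers summed to 7.58 to 8.15 with triclosan, 8.08 to 9.72 with diclosan, 9.51 to 9.84 with CCPB and 8.16 to 8.61 with DMSO (Vwf higher with CCPB, but -0.02 with the slide block, adjusted p = 0.913), with Pecam1, Stab2 and Lyve1 among the 4 not above background. The 3 measured of 7 cholangiocyte markers summed to 2.78 to 3.24 with triclosan, 2.79 to 3.05 with diclosan, 3.51 to 3.57 with CCPB and 2.78 to 2.97 with DMSO (Epcam and Sox9 higher with CCPB, with slide-block differences of 0.24, adjusted p = 0.379, and 0.20, adjusted p = 0.493), with Krt19 and Spp1 among the 4 not above background. The 4 measured of 9 macrophage markers summed to 0.771 to 1.03 with triclosan, 1.05 to 1.2 with diclosan, 0.93 to 1.05 with CCPB and 0.719 to 0.997 with DMSO. Of these 4, 0 passed between CCPB and DMSO, beside 28.3% of all tested. The part of these shifts in the differences above was not tested, and in RNA from whole cultures fewer cells of a type and less RNA per cell cannot be told apart.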

How the data were processed

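Gene expression was measured on 12 one-colour rat arrays. Per the file headers, the authors made each spot's intensity with Agilent Feature Extraction 10.7.1.1, background-subtracted and detrended within the array, floored for dim spots and not scaled between arrays. A linear signal per probe, scaled by the authors until each array's 75th percentile lay between 0.9995 and 1, was deposited as a summary and served as an alternative. Such scaling presumes that few bright transcripts moved, and the floor compresses differences of dim genes.

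From the deposited intensity, log2 values were averaged over the spots of a probe and centred on the array's 75th percentile. Non-uniform spots (1 to 8 per array) were left out, and 0 spots were saturated. Between 51.6% and 55.5% of probes were well above background, and 24254 probes that were so on all 3 arrays of a group were kept. The files name transcripts by accession, matched without version to RefSeq gene symbols (assembly GRCr8, used for names and promoter windows), which named 21218 of 45579 probes. The brightest kept probe stood for a gene, and 10 members had several kept probes. All 12 arrays were fitted by group in limma (3.58.1, run under R 4.3.3 and data.table at 1.17.8), two-sided, after tests on simulated data, with Benjamini-Hochberg adjustment over 20359 genes or transcripts for each of 6 comparisons. Slides were read from the file headers. Intervals are 95% and unadjusted, and 3 arrays per group limit the precision. An "at least" fold sets the brighter group's mean against the dimmer group's after each dim array was raised to its lowest level above background.

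The members, the further lists, the markers and the motifs were chosen with earlier results of these data known. Levels on all arrays are given for the 16 members with the smallest adjusted p by group alone or with the slide block, and up to 3 genes of each further list are named. A few genes that qualified for naming are not reported here. Alternatives were another centring, quantile normalization, normexp background correction (offset 50), the value table, other filters, the mean of all probes, slide and replicate blocks, other fits and adjustments, and single arrays left out. Same-numbered replicates did not deviate together (correlations -0.165 to 0.117), so the numbers were not used to pair samples. The motif TTACGTCA was added after the data were seen.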

Additional observations from a re-analysis of the deposited data

How the results depend on the processing

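None of the 37 genes' differences that passed changed direction under the alternatives run, but with the slide block 9 CCPB differences that passed in neither fit turned their sign, namely those of Gpi, Pfkp, Aldoa, Pgam1, Pkm, Pdha1, Slc2a1, Egln3 and Vegfa. The number that passed between CCPB and DMSO, 15, was 8 with median centring, 7 with no filter on dim probes, 1 with the slide block, 0 with the slide block and the replicate block together, and 9 to 14 with 1 array left out (9 without DMSO replicate 1). Between triclosan and CCPB, 8 became 4, 4, 0 and 0 under the same settings, 5 with only the compared groups fitted, 5 with adjustment over all 6 comparisons, and 4 to 6 with 1 array left out. Between diclosan and CCPB, 9 became 3, 3, 3 and 2, 3 with only the compared groups, 5 with adjustment over all 6 comparisons, 0 within slide 2 (where the 1 diclosan array is assumed to vary like the CCPB arrays, so that this 0 says nothing of whether the calls hold), and 3 to 13 with 1 array left out (13 without diclosan replicate 3). Adjustment over all 6 comparisons gave 1 for triclosan against DMSO (Pck1), 2 for diclosan against DMSO (Pklr and Aldoc) and 1 for triclosan against diclosan (Slc2a1), each 0 otherwise. It pools these comparisons with those of CCPB, where many p-values were small. The replicate block alone gave 16 (CCPB against DMSO), 9 (triclosan against CCPB) and 8 (diclosan against CCPB). Normexp, run on median in place of the planned mean signals, and the removal of diclosan replicate 3 from the other comparisons were chosen after seeing the data. Normexp gave larger CCPB differences for Slc2a2, Gckr, Pdhb and Pgm1 (0.28, 0.39, 0.31 and 0.37), and less for Hk1 (-0.33). Removing diclosan replicate 3 gave 19 (CCPB against DMSO) and 11 (triclosan against CCPB). Pck1 and Hk1 have no value among probes above background on all 12 arrays, and dim signals limit both.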

Other observations

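For genes with several probes, the probe could matter to the CCPB difference. The second Bnip3 probe gave 0.23 beside 0.29, and the second Fbp1 probe 0.31 beside 0.17. The 3 Vegfa probes gave -0.02, 0.05 and 0.20. The 3 Pdha1 probes gave 0.14, -0.01 and -0.05, the 3 Ldha probes -0.07, 0.08 and 0.01, and the 8 Gapdh probes ran between -0.07 and 0.11. Vegfa, Pdha1, Ldha and Gapdh thus have no direction shared by their probes, whereas both probes of Bnip3 and both of Fbp1 were higher. Pfkfb1, Gckr, Pygl, Pgm1 and Ankrd37 each rested on 1 probe.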
